A study of Homo sapiens with 12 samples.

Results

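A set of 98 genes carried a METTL16 peak in both replicates of an RNA immunoprecipitation experiment and no peak of eIF3a or eIF3b in any of their 4 lists. They were chosen by gene name from the presence and absence of called peaks, so the METTL16 peaks that put a gene in the set and the lack of eIF3 peaks are its definition and carry no test. They made up 2.125% of the 4612 genes with a peak in both METTL16 lists, called METTL16-bound here, and 0.905% of the 10830 gene names with a peak in any list. The other 4514 METTL16-bound genes had at least 1 eIF3 peak.

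RNA immunoprecipitation followed by sequencing (RIP-seq) pulls down a protein with an antibody and compares the RNA that comes with it with the input RNA. All 12 samples came from HepG2, a human liver cancer cell line, and were 6 RIP samples (2 per protein) and 6 inputs. Separate stable lines carried 3XFlag-METTL16, 3XFlag-eIF3a or 3XFlag-eIF3b, all groups were cross-linked with ultraviolet light, and per the labels METTL16 and eIF3b were recovered with a Flag antibody and eIF3a with an antibody against eIF3a itself, although the lists' own names give Flag for all 6. Antibody and protein therefore cannot be told apart for eIF3a, and the tagged proteins were overexpressed, which limits each line as a model of the endogenous protein. Only the 6 peak lists were used, and they held between 12921 and 21733 peaks on 5226 to 8166 genes. Of 11 genes that mark hepatocytes and liver cancer, 8 had peaks in both METTL16 lists, among them HNF4A and FOXA2, which had peaks in all 6 lists. Of the METTL16 lists, ALB and FGB had a peak in replicate 2 only, and TTR had no peak in any list. ALB, AFP and TF had peaks with METTL16 only. Of 9 genes of other cell types, CD3E, COL1A1, RBFOX3, SNAP25 and MYH7 had no peak in any list. The haemoglobin gene HBB reached 576-fold and 986-fold in the METTL16 lists and 1700-fold in eIF3b replicate 1, the endothelial gene VWF 35.8-fold and 33.4-fold in the METTL16 lists with peaks in 3 eIF3 lists, PECAM1 had peaks in the 4 eIF3 lists only, and the leukocyte gene PTPRC 14.6-fold in METTL16 replicate 1 only. A peak is an enrichment over input and not an expression level, and the part of other cell types in these values was not tested.

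METTL16 is a methyltransferase that places N6-methyladenosine on U6 small nuclear RNA and on hairpins of the MAT2A messenger RNA, and it also has cytosolic roles in translation. eIF3 is the large initiation factor that holds the small ribosomal subunit and brings it to messenger RNA, with eIF3a and eIF3b in its core. METTL16 is known to bind both subunits, so the genes described here are those on which only the METTL16 side of that pair left a called peak.

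Several of the peaks with a high fold in both replicates lay in coding sequence rich in G and C. The bases that both replicates shared on 5 such genes, chosen because they were wholly coding and in 1 exon block, are given 5′ to 3′ on the transcript strand, read from GRCh38, with every CG dinucleotide in capitals. Not all high-fold peaks were of this kind: RAX, which had the third highest geometric mean fold, was bound in the 5′ UTR, and the unplaced peaks of MTRNR2L10, next in that order, had 37.8% and 39.4% GC. LINGO1 encodes a neuronal leucine-rich repeat protein (chr15:77615566-77615715, minus strand), ARTN the GDNF family ligand artemin (chr1:43936373-43936552, plus strand), SHANK1 a postsynaptic scaffold (chr19:50668120-50668299, minus strand), CUX2 a neuronal homeobox factor (chr12:111320486-111320666, plus strand) and CACNA1B the pore of the N-type calcium channel (chr9:137877969-137878148, plus strand).
LINGO1: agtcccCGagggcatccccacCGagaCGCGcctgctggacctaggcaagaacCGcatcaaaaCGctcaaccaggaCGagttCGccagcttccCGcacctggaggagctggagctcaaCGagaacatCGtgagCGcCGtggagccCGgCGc
ARTN: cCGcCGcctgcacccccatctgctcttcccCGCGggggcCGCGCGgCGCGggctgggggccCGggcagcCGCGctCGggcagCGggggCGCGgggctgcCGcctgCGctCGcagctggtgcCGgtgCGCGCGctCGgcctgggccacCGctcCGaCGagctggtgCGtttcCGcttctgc
SHANK1: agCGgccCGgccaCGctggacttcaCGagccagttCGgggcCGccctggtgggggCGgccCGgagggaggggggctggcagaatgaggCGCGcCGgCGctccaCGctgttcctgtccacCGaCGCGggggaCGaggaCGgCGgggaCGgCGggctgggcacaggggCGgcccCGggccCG
CUX2: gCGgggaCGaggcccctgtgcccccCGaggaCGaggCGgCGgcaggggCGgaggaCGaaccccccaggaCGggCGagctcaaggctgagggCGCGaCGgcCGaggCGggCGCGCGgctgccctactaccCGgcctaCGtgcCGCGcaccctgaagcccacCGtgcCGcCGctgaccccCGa
CACNA1B: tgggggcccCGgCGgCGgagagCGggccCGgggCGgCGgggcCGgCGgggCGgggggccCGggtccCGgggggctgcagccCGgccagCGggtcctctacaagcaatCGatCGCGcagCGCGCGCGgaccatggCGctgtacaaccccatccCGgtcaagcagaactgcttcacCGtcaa

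These 5 stretches were 150 to 181 bases long and held 15 CG dinucleotides in LINGO1, 29 in ARTN, 24 in SHANK1, 26 in CUX2 and 24 in CACNA1B. Their GC content ran from 65.3% in LINGO1 to 81.7% in ARTN. CACNA1B was bound at the very start of the coding sequence, at coding bases 36 to 215 of 7017. The shared stretch of LINGO1 covered coding bases 192 to 341 of 1860, while those of ARTN (271 to 450 of 660), SHANK1 (3661 to 3840 of 6483) and CUX2 (2477 to 2657 of 4458) lay in the middle of the coding sequence. Called peak edges were the same in both replicates for ARTN, SHANK1 and CACNA1B. Member peaks often had the same few lengths, 150, 180 and 181 bases among them. Equal edges therefore need not mean agreement to the single base.

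Other members had quite different sequence under the peak. The alpha-fetoprotein gene AFP, an oncofetal plasma protein that HepG2 cells make, is shown as the low-fold contrast with CG again in capitals: this exon block at chr4:73453807-73453897, plus strand, held no CG and 50.5% GC, and it covered coding bases 1695 to 1785 of 1827. The class II antigen gene HLA-DQA1 (block at chr6:32642610-32642744, plus strand) and the receptor tyrosine kinase gene ROS1 (block at chr6:117396915-117397024, minus strand) are shown because they alone held the 7 letters ACAGAGA, the core that METTL16 is known to methylate in U6 and MAT2A, which are in capitals in these 2 sequences.
AFP: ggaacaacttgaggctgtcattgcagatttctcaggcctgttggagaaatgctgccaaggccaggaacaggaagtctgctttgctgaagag
HLA-DQA1: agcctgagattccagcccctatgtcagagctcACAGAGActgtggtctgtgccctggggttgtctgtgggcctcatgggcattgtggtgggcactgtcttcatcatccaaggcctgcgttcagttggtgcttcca
ROS1: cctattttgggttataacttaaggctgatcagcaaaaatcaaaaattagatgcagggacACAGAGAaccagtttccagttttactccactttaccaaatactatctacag

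ACAGAGA, searched on the transcript strand only, was found in 2 of 102 member peaks in METTL16 replicate 1 and in 2 of 119 in replicate 2, which are shares of 1.961% and 1.681%. Among peaks of the other METTL16-bound genes the shares were 3.484% and 3.524%. Member peaks had a median length of 121 bases in replicate 1 and 180 in replicate 2, against 181 in both for the others. The part of peak length and base composition in these shares was not tested, and only 2 member peaks per list matched. The longer TACAGAGAA was in no member peak, and in 11 and 10 peaks of the other genes. A match of letters is a description of the sequence and not a methylated site, and no match says only that these letters were not under the peak.

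Within the set, fold enrichment over input ran from 1.10 to 181 in METTL16 replicate 1 and from 1.17 to 229 in replicate 2, taking the highest peak of each gene. The median over members of the highest fold per gene was 3.155 in METTL16 replicate 1 and 4.725 in replicate 2, with quartiles of 1.677 and 13.2 in replicate 1 and of 2.38 and 18.7 in replicate 2. The other METTL16-bound genes had medians of 4.16 and 4.42 with narrower quartiles, 2.70 to 8.23 and 2.84 to 8.34. Thus the members lay more at both ends of the range. A fold of at least 10 in both lists was reached by 27 members (27.55%) against 12.8% of all METTL16-bound genes, and a fold under 2 in both lists was seen for 10 members (10.20%) against 3.899% of the other METTL16-bound genes. Because the METTL16 peaks were part of the choice, these shares describe the set and were not tested. The bounds of 10 and 2 were set after the values were seen.

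**Figure D1:**
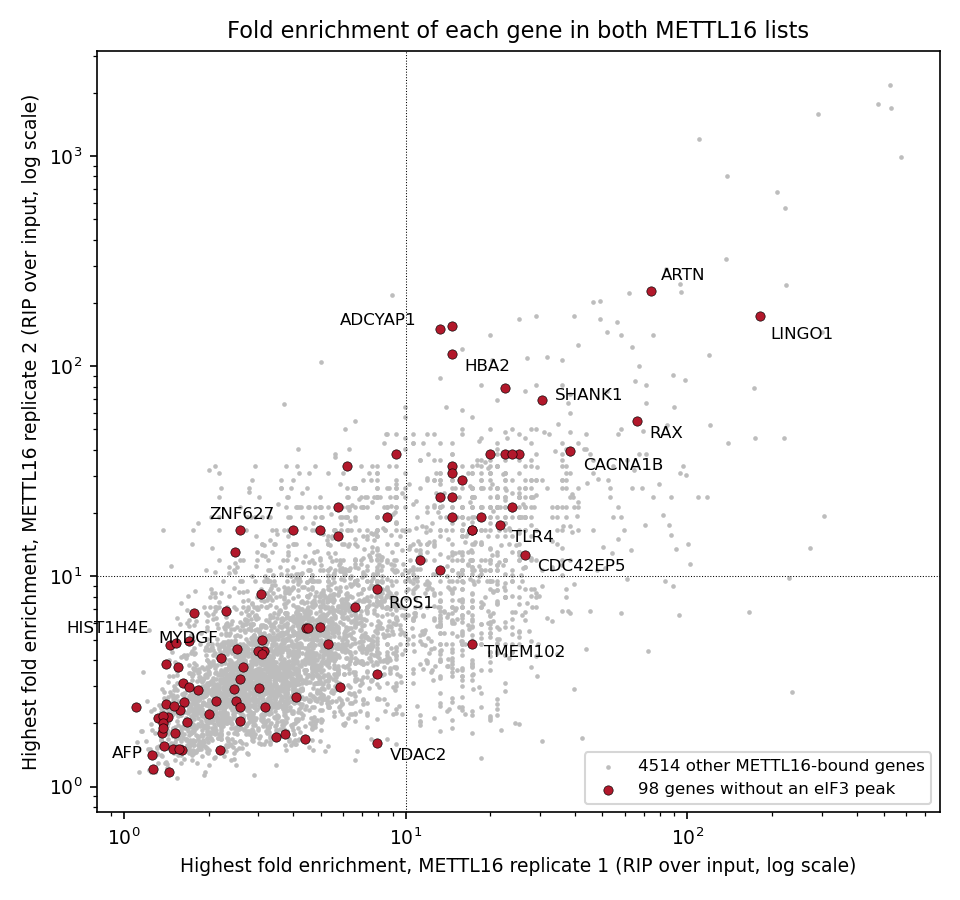
Highest fold enrichment per gene in METTL16 replicate 1 (x axis) and replicate 2 (y axis), both RIP over input on log scales. Red points are the 98 genes without an eIF3 peak, grey points the other 4514 METTL16-bound genes, and dotted lines mark a fold of 10. A cluster of red points sits near the origin, while 27 lie beyond 10 in both lists, led by LINGO1 and ARTN.

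The members were grouped by role after their values were seen, so the groups order the description and were not tested. Roles were not assigned to the other METTL16-bound genes. It is therefore unknown whether any role is more frequent among the members or their high-fold genes. Of the 27 members that were at least 10-fold in both lists, 7 encoded channels, receptors or adhesion proteins, 5 transcription factors, 5 scaffolds or regulators of signalling, 3 secreted ligands and 2 globins. Among 10 genes for channels, receptors and adhesion proteins of the cell surface, 7 were at least 10-fold in both lists. LINGO1 had a fold of 181 in replicate 1 and 174 in replicate 2, the highest pair of any member by geometric mean. The 2 replicates thus lay close together for this gene, and their log10 p-values were −96.4 and −37.2.

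CACNA1B had folds of 38.4 and 39.3, and UNC5B, a netrin receptor of growing axons, 23.8 and 38.1. For the toll-like receptor gene TLR4, which senses bacterial lipopolysaccharide, the folds were 21.6 and 17.5 over the same 181 bases in both replicates, of which 150 were coding and 31 lay in the 3′ UTR. HLA-DQA1 had folds of 23.8 and 21.4. These 4 genes were high in both replicates. TRPC6, a diacylglycerol-gated cation channel, had folds of 14.6 and 31.0. GPR39, a zinc-sensing receptor coupled to G proteins, had folds of 18.5 and 19.1. The remaining 3 of this group were lower, namely ROS1 with 7.95 and 8.73, the opsin gene OPN3 with 5.30 and 4.76, and CHRNE, the epsilon subunit of the muscle acetylcholine receptor, with 2.58 and 2.38.

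The 3 genes grouped as secreted ligands were all past 10-fold in both lists. This group was drawn after the values were seen. It leaves out MYDGF, a secreted growth factor with lower folds of 2.53 and 4.52. ARTN had a fold of 74.2 in replicate 1 and 229 in replicate 2. For ADCYAP1, which encodes the neuropeptide PACAP, the folds were 13.2 and 150. FLT3LG, the ligand of the FLT3 receptor on blood progenitors, had folds of 13.2 and 10.7, and its peaks shared 31 bases. Replicate 2 was thus far higher for ARTN and ADCYAP1 but not for FLT3LG.

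Among 8 transcription factor genes, 5 were at least 10-fold in both lists. RAX, the retinal homeobox factor, had folds of 66.2 and 54.8 over the same 150 bases, centred in the 5′ UTR. CUX2 had folds of 22.5 and 78.6, and TLX1, a homeobox factor of the developing spleen, 19.9 and 38.1. ZEB2 and SNAI1, both repressors that drive epithelial cells towards a mesenchymal state, had folds of 14.6 and 23.8 and of 8.61 and 19.1. Replicate peaks of ZEB2 and SNAI1, and of HKR1 below, shared no base. BATF2, an interferon-induced leucine zipper factor, had folds of 17.2 and 16.7, while the zinc finger genes ZNF627 (3.97 and 16.7) and HKR1 (4.50 and 5.66) were lower in replicate 1.

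Scaffolds and regulators of signalling followed with 5 of 7 past 10-fold in both. SHANK1 had folds of 30.5 and 69.1, and CDC42EP5, an effector of the GTPase CDC42, 26.5 and 12.7. RADIL, an effector of the GTPase RAP1, had folds of 17.2 and 16.7. RGS4, which shortens G protein signals, stood out in this tier by its place: its peak covered the same 181 bases in both replicates with folds of 11.3 and 11.9, and lay in the 3′ UTR. The kinases PIM2 (3.09 and 4.25) and ILK (1.44 and 2.15) were the 2 members of the group under 10. Of the other members among the 25 with the highest geometric mean fold, BEND4, a BEN domain protein, had folds of 25.2 and 38.1. CENPM, a centromere protein, had folds of 15.9 and 28.6, and PHOSPHO1, a phosphatase of bone mineralisation, 9.27 and 38.1. The alpha globin HBA2 had folds of 14.6 and 114, and the embryonic zeta globin HBZ 22.5 and 38.1.

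Under 2-fold in both lists were 10 members, among them AFP, CFB, CAT, ATP5B, CCT7, HIST1H2BC, the proton pump subunit ATP6V1E1, the calcium-binding protein S100A1 and the trafficking protein TRAPPC3. The 3 liver plasma proteins all stayed under 3 in both lists. AFP had folds of 1.37 and 1.80, transferrin (TF) 2.19 and 1.49, and complement factor B (CFB) 1.57 and 1.51. Despite its low fold AFP had the smallest p-values of the set when ordered by the larger of the 2 replicates, with log10 p of −43.5 in replicate 1 and of −368 in replicate 2, the latter at a second peak of 1.74-fold. Next in that order came LINGO1, MYDGF, HIST1H4E and ARTN. MYDGF, a secreted growth factor of the endoplasmic reticulum, had folds of 2.53 and 4.52. Fold and p-value therefore picked out different members, with LINGO1 and ARTN near the top of both orders.

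The 9 metabolic and antioxidant enzymes ran from 1.32 to 7.95 in replicate 1 and from 1.79 to 21.4 in replicate 2, and none reached 10 in both. Catalase (CAT) had folds of 1.52 and 1.79, and the last enzyme of tyrosine breakdown, FAH, 1.70 and 2.96. BHMT, which remethylates homocysteine to methionine in the liver, had folds of 5.74 and 21.4 from peaks of 90 and 60 bases that did not overlap. The peroxide-reducing enzymes PRDX2 (1.51 and 2.41) and PRDX4 (1.41 and 3.84) and the polyamine enzyme ODC1 (1.32 and 2.11) were all lower in replicate 1. Taking these enzymes as a group, 8 of the 9 had the higher fold in replicate 2, as did 72 of all 98 members (73.47%).

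The proteasome subunits PSMB1 (1.38 and 2.16) and PSMB3 (1.38 and 2.01), the chaperonin subunit CCT7 (1.50 and 1.51) and the mitochondrial protease CLPP (2.01 and 2.21) were likewise low. Of 9 genes for RNA processing, ribosome assembly and protein targeting, none reached 10 in both lists; among them were SBDS, which matures the large ribosomal subunit, with 3.16 and 2.38, and SRP14, a subunit of the signal recognition particle, with 3.73 and 1.78. Of 5 genes for mitochondrial subunits and carriers, the ATP synthase subunit ATP5B had folds of 1.27 and 1.21, the lowest pair of any member by geometric mean. The 4 core histone genes were split: HIST1H2BE had folds of 14.6 and 19.1, whereas HIST1H2BC (1.39 and 1.56), HIST1H2BN (1.63 and 2.52) and HIST1H4E (1.46 and 4.69) were low. These 11 role groups cover 66 members, and the remaining 32, which include 3 ribosomal protein genes, were left ungrouped.

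By symbol, 3 members were ion channel subunits (CACNA1B, CHRNE, TRPC6), which was 3.061% of the set against 0.4987% of METTL16-bound genes. Homeobox genes were 4 members (CUX2, RAX, TLX1, ZEB2), or 4.082% against 0.6505%, and synaptic and axonal genes 3 members (LINGO1, SHANK1, UNC5B), or 3.061% against 1.127%. Zinc finger genes (ZNF627, 1 of the 112 that were METTL16-bound) and solute carriers (SLC25A47, 1 of 69, with folds of 4.97 and 5.72) each made up 1.02% of the set, against 2.428% and 1.496% of METTL16-bound genes. Other developmental transcription factors (SNAI1), secreted ligands (ARTN) and receptors of G proteins (GPR39) had 1 member each, or 1.02%, against 0.954%, 0.5204% and 0.4337%. No member was on the keratin and junction list or the extracellular matrix list. These lists held only 13 and 31 METTL16-bound genes, or 0.2819% and 0.6722%. The lists go by symbol and are not complete classes. They leave out the ligands ADCYAP1 and FLT3LG and the zinc finger gene HKR1, which the role groups above hold. The shares are therefore those of the lists and not of whole classes of genes. With at most 4 members per list, these counts were not tested.

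The members carried few peaks. A single peak was found on 94 of 98 members in replicate 1 and on 81 in replicate 2, or 95.92% and 82.65%, against 37.79% and 39.79% of the other METTL16-bound genes. The best peak of a member had a median log10 p of −4.595 in replicate 1 and −7.845 in replicate 2, against −11.5 and −11.2 for the others. Median peak length was 121 bases in replicate 1 and 180 in replicate 2, where the other genes had 181 in both.

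Their transcripts were also short. The canonical transcript had a median of 1721 bases over the 97 members that could be placed on a gene model, against 3608 over other METTL16-bound genes, and the coding sequence 831 against 1572 bases. The 3′ UTR was shorter as well, 646 against 1363 bases. Length differed with fold. The median transcript was 3120 bases in the members at least 10-fold in both lists, against 4353 in other METTL16-bound genes past that bound. It was 1546 bases in the members under 2 in both lists and 1689 in those between, so the short transcripts were mostly outside the high-fold end. Transcripts of at most 1000 bases made up 24 members (24.74%) against 3.038% of the others. They included HIST1H4E with 412 bases, HBA2 with 576, LAMTOR4, a lysosomal regulator of nutrient signalling, with 594 and the translocon subunit SSR4 with 608. Long canonical transcripts were also present, and those of TF (20166 bases) and XKR4 (20241 bases) were the longest. Of these, 18024 and 17830 bases were 3′ UTR in the gene model. Whether the cells make these long forms was not tested. GC content of the whole transcript was 54.36% at the median and 54.18% in the others.

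**Figure D2:**
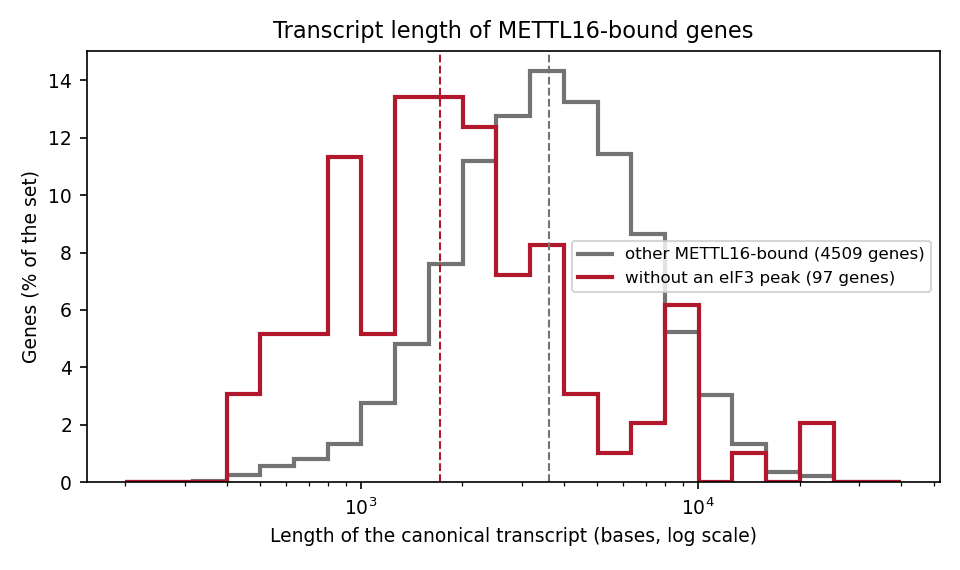
Distribution of canonical transcript length (x axis, bases on a log scale) as the percent of genes in each bin (y axis), in red for the 97 members with a gene model and in grey for 4509 other METTL16-bound genes. Dashed lines mark the medians, 1721 and 3608 bases, and the red curve has more genes at or below 1000 bases.

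Length ran in step with the number of eIF3 lists that held a gene. Among METTL16-bound genes, 98 had a peak in 0 of the 4 eIF3 lists, 231 in 1, 417 in 2, 1136 in 3 and 2730 in 4, and the median transcript was 1721, 1911, 2364, 2631 and 4480 bases in that order. High fold did not follow the same course. The share with at least 10-fold in both METTL16 lists was 27.55% with 0 eIF3 lists, 17.32% with 1, 11.99% with 2, 6.25% with 3 and 14.69% with 4, so it was lowest at 3 lists. The number of lists is in part a matter of how many peaks a gene had, and its part in these values was not tested.

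**Figure D3:**
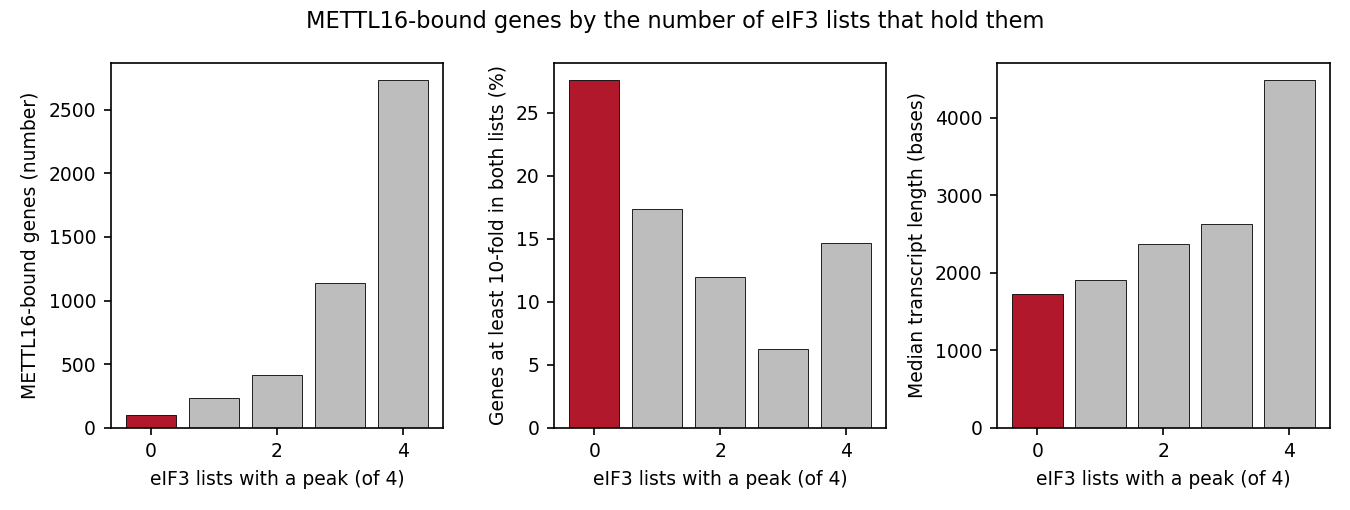
METTL16-bound genes by the number of eIF3 lists with a peak on them (x axis, 0 to 4, the members in red). The panels show the number of genes, the percent that were at least 10-fold in both METTL16 lists and the median transcript length in bases; length rises from 1721 to 4480 while the percent at high fold falls to 6.25% at 3 lists and is 27.55% at 0.

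Genes found with 1 protein only were set side by side by the same rule. By their own 2 lists, 122 of 4596 eIF3a-bound genes (2.654%) and 170 of 6493 eIF3b-bound genes (2.618%) had no peak of another protein. They also mostly had a single peak, 71.31% and 75.41% of eIF3a genes and 79.41% and 84.12% of eIF3b genes in replicates 1 and 2. Few peaks per gene were thus shared by all 3 sets. Transcripts in these sets were longer than those of the METTL16 set, with medians of 3455 and 2951 bases against 1721. A fold of at least 10 in both own lists was seen for 19.67% (eIF3a set), 17.06% (eIF3b set) and 27.55% (METTL16 set). A fold under 2 in both was seen for 3.279%, 4.118% and 10.20% in that order. In the other bound genes of each protein, these shares were 9.209%, 12.45% and 12.45% at 10-fold, and 3.464%, 4.476% and 3.899% under 2. Their median transcripts were 4587, 3942 and 3608 bases. High fold was thus more frequent, and transcripts shorter, in all 3 sets than in the protein's other genes. Median GC content of the peaks was 45.87% and 46.30% for the eIF3a set, 60.34% and 55.06% for the eIF3b set, and 62.40% and 59.66% for the METTL16 set. In the other bound genes of each protein it was 54.30% and 53.33%, 58.33% and 55.33%, and 60.06% and 61.64%. Against its other genes, the METTL16 set was thus higher in replicate 1 and lower in replicate 2. These are separate lists, and the differences were not tested.

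METTL16 peaks on the members lay mainly in coding sequence. Of 100 peaks placed on coding transcripts in replicate 1, 77 were centred in the coding sequence (77.0%), 10 in the 5′ UTR and 13 in the 3′ UTR. Of 118 in replicate 2, 91 (77.12%) were centred in the coding sequence, 11 in the 5′ UTR and 16 in the 3′ UTR. The replicates therefore gave nearly the same shares. Over the other METTL16-bound genes the coding share was 61.35% and 67.09%, and the 3′ UTR share 31.97% and 25.96% against 13.0% and 13.56% on the members. The 161 genes bound by METTL16 and eIF3b without an eIF3a peak lay between, with 70.98% and 76.86% coding. Members also had shorter 3′ UTRs, as given above, and the part of length in the lower 3′ UTR share was not tested.

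**Figure D4:**
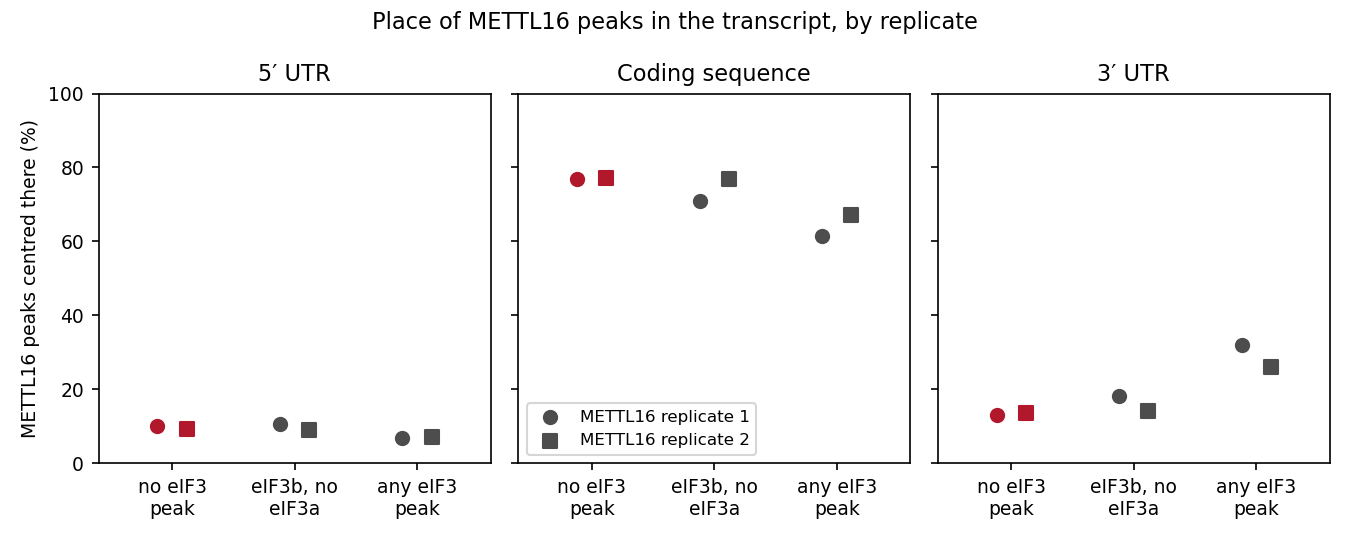
Percent of METTL16 peaks centred in the 5′ UTR, the coding sequence and the 3′ UTR (y axis), with 1 point per METTL16 replicate (circle, replicate 1; square, replicate 2), for genes without an eIF3 peak (red), genes bound by eIF3b without an eIF3a peak, and all genes with any eIF3 peak. Red points are at 77.0% and 77.12% in the coding panel, above 61.35% and 67.09% for genes with any eIF3 peak.

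In 8 members a peak was centred in the 3′ UTR in both replicates. For 5 of them it was the only peak in each list, namely RGS4, CHRNE, the clathrin adaptor AP2S1 (3.02 and 2.95), the collagen prolyl hydroxylase P4HA2 (2.58 and 3.25) and MYDGF, while MCRIP1, NPC2 and TF had further peaks. In the 5′ UTR, single peaks of both replicates were centred for RAX, UNC5B, SBDS, the cyclin gene CCNA2 (2.58 and 16.7) and DNAJC19, part of the mitochondrial import motor (3.06 and 8.23), and CFB, MAF1 and MARCH5 had a peak there in both lists beside others. From the 5′ end of the transcript, the median peak centre of members stood at 31.87% of the length in replicate 1 and 34.88% in replicate 2, against 43.74% and 40.47% on the other genes.

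Base composition differed with fold. Peaks of the 27 members at least 10-fold in both lists had a median GC content of 66.1% and 65.33% in replicates 1 and 2. The 562 other METTL16-bound genes past the same bound had 62.22% and 63.03%. All peaks of a gene were counted, of any fold, so the peaks compared were not alike. The members gave 27 peaks in each replicate, 1 per gene, and the other genes 1913 and 1842. In the 3′ UTR were centred 7.692% of the members' placed peaks in each replicate, against 39.96% and 36.08%. The part of this in the GC and CG content was not tested. CG dinucleotides numbered 7.955 and 7.285 per 100 peak bases at the median in these members and 3.911 and 4.318 in the other genes. In the remaining 71 members the values were 3.448 and 3.998, close to 3.350 and 4.074 in the other METTL16-bound genes under that bound. So the excess of CG, counted over all peaks of each gene, was seen at the high-fold end of the set. Within these 27, all peaks of 10 genes had at least 70% GC (ARTN, BEND4, CACNA1B, CDC42EP5, CUX2, RADIL, RAX, SHANK1, TLX1 and UNC5B), while all peaks of 8 genes were under 60%, among them TLR4 (49.7% in both replicates), RGS4 (42.0%) and HLA-DQA1 (55.9% and 56.4%). XKR4, a member of the XK-related family of membrane proteins, had 86.0% GC in the same 150 coding bases in both replicates, with folds of 6.18 and 33.4. GC content can change how fragments are amplified and sequenced, and its part in the fold was not tested.

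**Figure D5:**
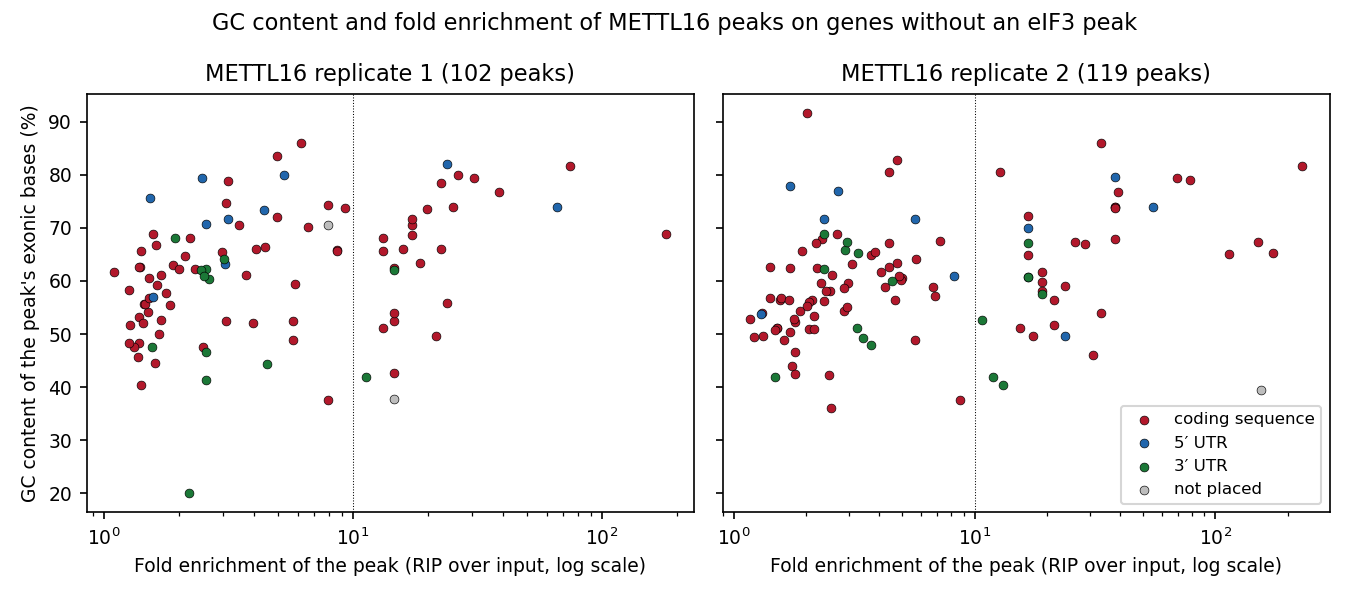
GC content of the exonic bases of each member peak (y axis, percent) against its fold enrichment (x axis, RIP over input, log scale) for METTL16 replicate 1 (102 peaks) and replicate 2 (119 peaks), coloured by where the peak was centred. The dotted line marks a fold of 10. Beyond it coding peaks reach 86.0% GC (XKR4, replicate 2), with TLR4 at 49.7% and RGS4 at 42.0% as lower points.

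The 2 METTL16 replicates gave peaks at the same place for most members. Peaks of both replicates shared at least 1 base on 79 of 98 members (80.61%), against 84.8% of all METTL16-bound genes. Of the 27 members at least 10-fold in both lists, 25 (92.59%) shared a base. The share was nearly the same, 513 of 562 (91.28%), in the other METTL16-bound genes past that bound. In 11 members a single peak had the same start and end in both lists, namely ARTN, BEND4, CACNA1B, CHRNE, RAX, RGS4, ROS1, SBDS, SHANK1, TLR4 and XKR4. Such genes were not counted among the other METTL16-bound genes. No base was shared in 19 members, of which EHD2, an endocytic ATPase (13.2 and 23.8), and ZEB2 were past 10-fold in both lists. For these 19 the replicates put METTL16 on the same gene but at different places.

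Fold was higher in replicate 2 in 72 of 98 members (73.47%), by a median ratio of 1.403, against 54.32% of the other METTL16-bound genes with a median ratio of 1.057. The replicates were more than 4-fold apart in 9 members, which were ADCYAP1, CCNA2, HBA2, MARCH5, MTRNR2L10, PHOSPHO1, VDAC2, XKR4 and ZNF627. VDAC2, a mitochondrial outer membrane channel, was the only one of these that was higher in replicate 1, with 7.95 against 1.61. Its replicate 1 peak was not placed on the gene model and shared no base with its coding replicate 2 peak. For MARCH5 the highest peaks also lay apart, in the 5′ UTR in replicate 1 (2.48) and in the 3′ UTR in replicate 2 (13.1). Across members log2 fold in the 2 lists correlated with Pearson r = 0.8445 and Spearman rho = 0.8099 over 98 genes, and with 0.6944 and 0.6690 over the other METTL16-bound genes. Genes are not independent replicates, and the members' wider range of folds enters such a value.

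Many high folds were repeated values. In replicate 1 a fold of 14.6 with log10 p of −3.17 was held by 77 peaks in all, HBA2, HIST1H2BE, MTRNR2L10, TRPC6 and ZEB2 among them. In replicate 2 a fold of 38.1 with log10 p of −7.44 was held by 16 peaks, among them those of BEND4, UNC5B, HBZ, TLX1 and PHOSPHO1. So several members had the same fold to every digit printed. Of member peaks of at least 10-fold, 23 of 28 in replicate 1 (82.14%) and 29 of 39 in replicate 2 (74.36%) had exactly the fold and log10 p of another peak in the same list, against 52.61% and 60.54% over all peaks of at least 10-fold. Among those with a pair of their own were ARTN and RAX in both lists, LINGO1 in replicate 1 and SHANK1 in replicate 2. The read counts behind these peaks were not used here, so their depth is unknown and its part in the repeated values was not tested.

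Absence of an eIF3 peak rested on names and thresholds. Searching by position instead, only ABHD14A-ACY1, a readthrough gene, had an eIF3 peak of another name over its METTL16 peak: an eIF3a replicate 1 peak of ACY1, 2.24-fold, which shared 84 of 1074 bases with it, and leaving it out gave 97 genes. Some members have close copies whose reads can be assigned to either. HBA1, the near-identical neighbour of HBA2, had METTL16 folds of 39.7 and 174 and an eIF3b peak of 28.8-fold in replicate 1. EIF5A had peaks in 5 of the 6 lists, while its copy EIF5AL1 had METTL16 folds of 5.74 and 15.5 and no eIF3 peak. MTRNR2L10 (14.6 and 155) resembles other nuclear copies of mitochondrial ribosomal RNA, of which MTRNR2L6 had peaks in all 6 lists, and H2B histone genes resemble each other in the same way. For these members the lack of an eIF3 peak is uncertain.

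Nearest to the limit of the peak calls, the member whose best peak in its weaker METTL16 list had the largest adjusted p-value was CHRNE (0.04365), followed by LOC728392, RADIL and UBA7, all at a log10 adjusted p of −1.66, which is 0.02188. Just outside the set were 3 METTL16-bound genes kept out by a single weak eIF3 peak. ANKRD34A had an eIF3b replicate 2 peak of 4.89-fold with an adjusted p of 0.04467, C14orf119 an eIF3a replicate 1 peak of 14.9-fold (0.03548) and LYL1 an eIF3b replicate 1 peak of 2.52-fold (0.02754). In all, 183 METTL16-bound genes had exactly 1 eIF3 peak. Of the 4 eIF3 lists, eIF3b replicate 1 moved the size of the set most: without it 266 genes would have qualified, whereas leaving out any other eIF3 list gave 103 to 131. With METTL16 replicate 2 alone it was 509 genes and with METTL16 replicate 1 alone 177.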

How the data were processed

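The data were 6 peak lists, 1 per RIP sample. Reads had been aligned by the authors with STAR to GRCh38, and exomePeak with default parameters had compared RIP with input. Versions, annotation and which input went with which RIP sample are not given in the sources used here. Each deposited peak has a fold enrichment, a ratio of RIP over input, and a p-value. Log10 values of the raw and adjusted p were also deposited and served here as a score. Peaks reached adjusted p-values of up to 0.0501. Read counts and the 6 inputs were not used, so the depth is unknown and single peaks have no counting error.

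Coordinates are on GRCh38 and counted from 1. Gene names were matched to GENCODE release 44 on the same assembly, 10328 by current symbol and 475 by an older one, with 27 unmatched (88, 9 and 1 among the members). Peaks with at least 50% of their bases on exons of the named gene were placed, by their centre, in the 5′ UTR, coding sequence or 3′ UTR of the canonical transcript first. Where a gene had several peaks, the highest fold was used. Sequences were read from the genome with pysam 0.24.0, and tables were made with pandas 2.3.3 in Python 3.11.15. Interval code was tested on simulated data. No test was run, since the members were chosen by these same peaks with 2 replicates per protein.

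Every member could be named. Values were given for the 25 members with the highest geometric mean fold, the 5 with the smallest larger p-value, members on the gene lists and those nearest to the limit; further members were named by role after their values were seen. The members, gene lists and roles were chosen with earlier results of these data known. Single ribosomal protein genes are not reported here. The alternatives were fold and p filters, exclusion by position or by current gene, placement by bases, and leaving out each list.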

Additional observations from a re-analysis of the deposited data

How the results depend on the processing

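The number of genes was the value that depended most on the settings. It was 40 with METTL16 peaks of at least 4-fold, 64 with at least 2-fold, 208 with the 5000 smallest p-values of each list (14 of the 98 among them), 372 when only eIF3 peaks of at least 2-fold excluded a gene, 97 by position, 98 by current gene, and 103 to 509 when 1 list was left out. The region shares that follow are means of the 2 METTL16 lists, unless 1 was left out. Placed by bases, peaks were 76.46% coding, 9.022% 5′ UTR and 14.52% 3′ UTR. With the highest-fold peak per gene and list, 78.23% were coding and 12.44% 3′ UTR. At 4-fold or more, the shares were 79.98% coding, 10.58% 5′ UTR and 9.444% 3′ UTR, and leaving out a METTL16 replicate gave 77.00% to 77.12%, 9.322% to 10.00% and 13.00% to 13.56%. The mean of the 2 lists' median GC was 61.03%, and 64.46% for peaks of at least 4-fold. The median over all exon bases of the members was 52.08%. The mean of the 2 lists' median fold was 3.94, from 3.155 and 4.725 by list. With the peak of smallest p-value per gene that mean was 3.812, and over all peaks 3.48. Overlap between replicates was 76.53% at 50% of the shorter peak and 82.5% at 4-fold. No paired analysis was possible because no result came from a test. Without read counts, depth limits could not be set.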
